A study of Mus musculus with 6 samples.

Results

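The genes described here carry fast inhibition in the spinal cord: they make, break down, load, take up and sense the transmitters GABA and glycine, and they set the chloride gradient that these transmitters use. A list of 26 mouse genes was taken by symbol (Ensembl gene IDs matched to symbols, mm10 build) from the 54532 genes in the files, and 25 of them were among the 16513 genes measured well enough to be tested. Gene expression was measured by RNA sequencing in the cervical spinal cord of 6 C57BL/6 mice, 1 library per mouse. In 3 mice a skin inflammation resembling psoriasis had been provoked on the shaved nape with 50 mg of cream holding 5% imiquimod, an agonist of the RNA sensor TLR7, given daily on 2 days. The other 3 mice had an equal amount of vehicle cream on the same skin. The cords were flash frozen and contain every cell type of the tissue, so that fewer cells of a type and less RNA per cell cannot be told apart. The sources used here give neither age nor sex. All values are FPKM, fragments per kilobase of exon scaled to library size, as deposited.

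GABA is made from glutamate by 2 glutamic acid decarboxylases and is broken down by a transaminase. GABA and glycine are packed into synaptic vesicles by the same transporter, are cleared by membrane transporters on neurons and astrocytes, and open chloride channels made of 5 subunits. In the dorsal horn these synapses hold back itch and pain signals. The strength of inhibition through the chloride channels depends in part on how low the neuron keeps its chloride. The exporter KCC2 (Slc12a5) lowers it, against the importer NKCC1 (Slc12a2).

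The 6 libraries held 18174411 to 23200993 fragments, as recovered from the FPKM steps, with the 3 imiquimod libraries the deepest (an exact two-sided permutation test gave p = 0.1, its lowest possible value with 3 a group). Across all genes the test (limma on log2(FPKM + 0.1), threshold an adjusted p of 0.05) called 1444 genes higher and 882 lower. Higher genes were 62.1% of the calls, 52.9% when the libraries were set to a common median and 46.0% when a length and GC trend was removed. Imiquimod replicates 1 and 3 stood apart from the other 4 libraries in Hoxc8, a gene that marks position along the cord. Hoxc8 was at 16.9, 16.6 and 15.0 FPKM in vehicle replicates 1 to 3 and at 1.52, 11.9 and 1.63 in imiquimod replicates 1 to 3. The same libraries were low in Hoxb9 (8.27 and 8.31 FPKM against 18.0 to 22.3 in the other 4) and in Hoxa7 (10.7 and 10.1 against 17.2 to 19.7), genes that, like Hoxb7, Hoxa4 and Hoxd8, were chosen after their values were seen. Hoxa5, a more anterior gene, was at 26.9 to 31.7 FPKM in vehicle and 26.3 to 33.5 in imiquimod libraries. Other Hox genes had all 3 imiquimod libraries, replicate 2 included, outside the vehicle range. Hoxb8 (81.3 to 90.3 FPKM in vehicle, 113 to 137 in imiquimod libraries) and Hoxb7 (17.7 to 20.2 and 29.8 to 38.6) were called higher. Hoxa4 (6.13 to 7.51 and 4.91 to 5.51) and Hoxd8 (20.4 to 23.4 and 11.6 to 16.4) were called lower. Imiquimod replicate 2 was thus not the same as vehicle in these genes. The labels give the tissue only as cervical cord. The part of this library difference in the results was not tested, and counts are therefore given with and without imiquimod replicates.

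Imiquimod cords had more Gad2 and less of 7 other members: Slc12a2, Gabra2, Slc6a11, Abat, Slc6a9, Gabrg1 and Gabra3. The 7 lower members were 28% of the 25 tested, beside 5.34% of all genes tested that were called lower. The 1 higher member was 4% of the 25, beside 8.74% of all genes called higher. The changes were moderate: the fitted log2 change of the called members ran from a fall of 0.63 (Gabra2) to a rise of 0.41 (Gad2). The other 17 tested members did not pass, and 13 of the 25 had an unadjusted p under 0.05. The share of all genes with such a p was not counted. A negative change was found in 18 of the 25, beside 8408 of the 16513 genes tested. The median log2 change of the 25 was -0.18, beside -0.01 over all genes tested. The vehicle and imiquimod libraries did not overlap in 16 of 25 members, beside 37.9% of all genes tested. All 25 also had enough signal when the filter used the mean of all 6 libraries, so none was tested only because 1 group was high.

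**Figure D1:**
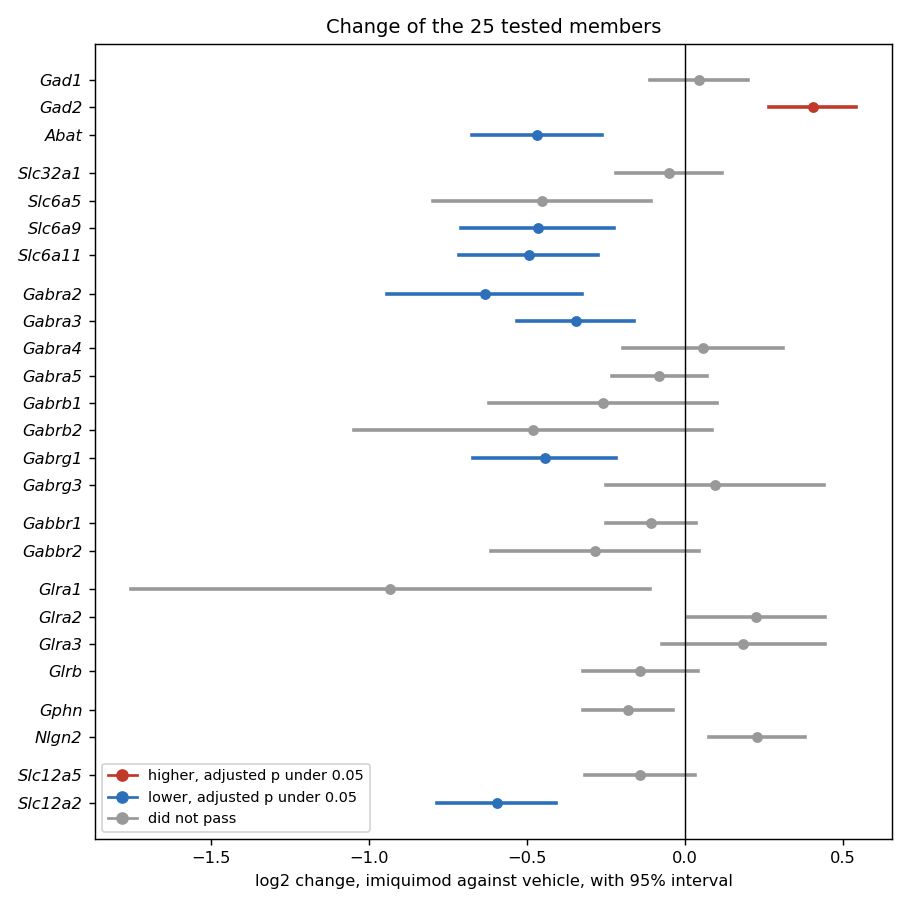
Log2 change of each tested member (imiquimod against vehicle, 3 libraries a group, x axis) with its 95% interval from limma, grouped by role from transmitter synthesis at the top to chloride transport at the bottom. Gad2 alone was called higher (red), 7 members were called lower (blue) and 17 did not pass (grey), of which Glra1 has the widest interval, from -1.75 to -0.11.

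These counts rested on which libraries were used, vehicle as well as imiquimod. Without imiquimod replicate 2, 10 members were lower (beside 7.79% of all genes), and with imiquimod replicate 2 as the only imiquimod library none was called (0.381% of all genes were called lower in that fit). The groups did not overlap in any of the 8 members called with all libraries, so their direction in that fit was fixed in advance. The 7 lower members had log2 changes of -0.45 to -0.24 there. That fit assumes that the lone library varies as the vehicle libraries do. Imiquimod replicate 2 lay outside the vehicle range in 17 of 25 members, and in 67.6% of all genes tested. It was the highest of the 3 imiquimod libraries in 16 of the 18 members with a negative change, and in 46.3% of all genes with a negative change. Without vehicle replicate 1, 2 or 3, 1 member was lower, beside 1.13%, 1.52% and 1.52% of all genes in those fits. Without imiquimod replicate 1, 3 members were lower (3.79% of all genes), and without imiquimod replicate 3, 2 were (2.58%). Gad2 and Slc12a2 passed in each of these 6 fits.

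**Figure D2:**
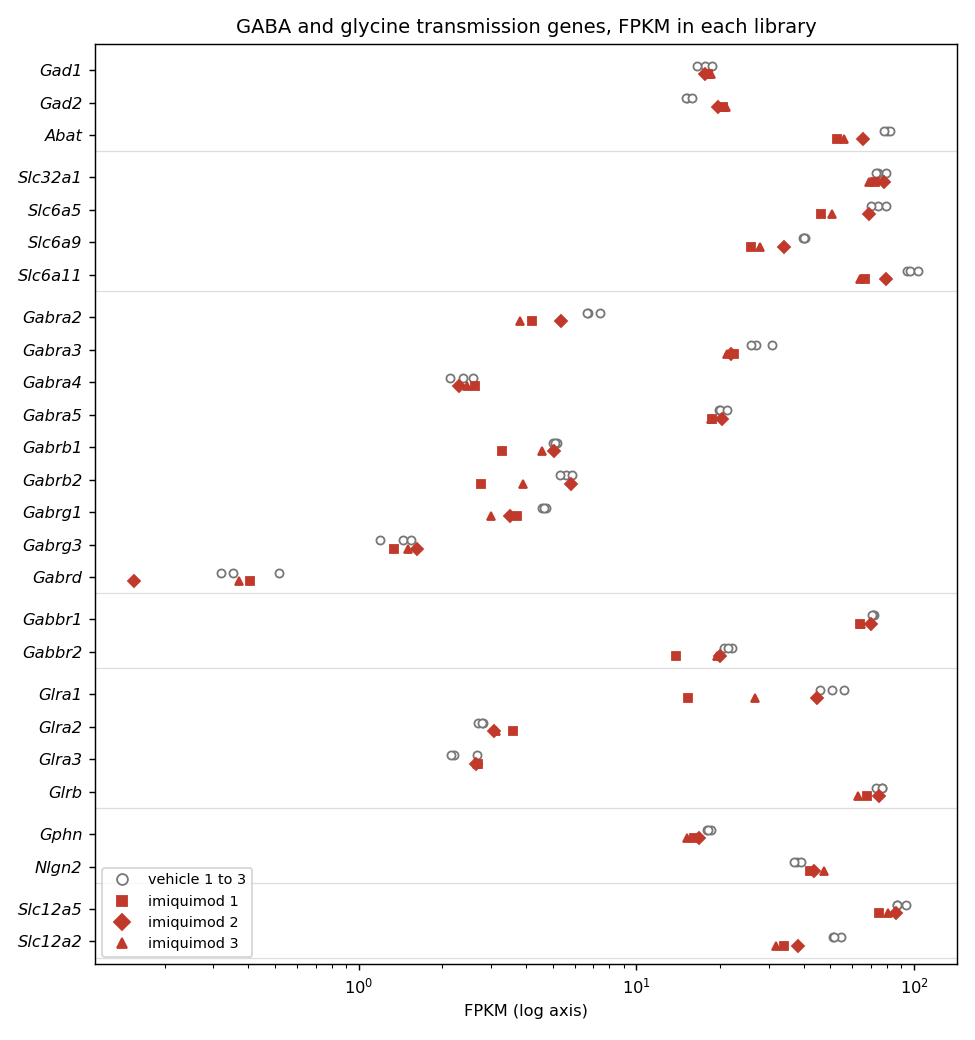
FPKM of the 26 members (log axis) in each of the 6 libraries, vehicle as open circles and imiquimod replicates 1 to 3 as a square, a diamond and a triangle, in blocks by role. Gad2 is higher in all 3 imiquimod libraries (19.7 to 21.1 against 15.1 to 15.9 FPKM), Slc12a2 is lower in all 3 (31.8 to 38.2 against 51.1 to 54.4 FPKM), and the diamond often lies nearest the open circles.

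Of the 2 decarboxylase genes, Gad2 rose and Gad1 did not pass. Gad2 (chr2:22622205-22693874, plus strand, GRCm38), which encodes the synaptic enzyme GAD65, was at 15.2, 15.1 and 15.9 FPKM in the vehicle libraries and at 20.5, 19.7 and 21.1 in the imiquimod libraries. All 3 imiquimod libraries lay above all vehicle libraries. The means were 15.4 ± 0.427 and 20.4 ± 0.697 (SD, n = 3 each), 32.7% higher, with a log2 change of 0.41 ± 0.06 (SE; limma adjusted p = 0.00717). Gad1 (chr2:70553072-70602014, plus strand), which encodes GAD67, the source of most basal GABA, was at 17.6, 16.6 and 18.7 FPKM and at 18.1, 17.7 and 18.6. These groups overlapped, and the log2 change of 0.04 ± 0.07 had a 95% interval from -0.11 to 0.20. The ratio of Gad2 to Gad1 was 0.874 ± 0.0308 in vehicle and 1.12 ± 0.0109 in imiquimod libraries, with no overlap, so that the order of the 2 genes on the FPKM scale was reversed.

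Abat, the GABA transaminase of mitochondria (chr16:8513429-8621568, plus strand), fell. It was at 80.0, 81.9 and 78.2 FPKM in vehicle and at 52.8, 65.2 and 56.1 in imiquimod libraries, a log2 change of -0.47 ± 0.09 (limma adjusted p = 0.0167). The groups did not overlap, and imiquimod replicate 2 lay nearest to vehicle. The call ended without any 1 vehicle library or without imiquimod replicate 3 (adjusted p from 0.0523 to 0.0732).

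The 250 bases before the RefSeq start of Gad1 and Gad2 (GRCm38.p6, both on the plus strand) are printed because 1 of these paralogous genes rose and the other did not pass. Capitals mark matches on either strand to 4 motifs, which do not overlap each other here. The GC box, GGGCGG, is in 32.7% of all 32851 windows of this length. The TATA box, TATAAA, is in 12.4% of them. The cAMP response element, TGACGTCA, is in 1.55%, and the STAT site, TTCNNNGAA, in 7.02%.
Gad1 promoter, chr2:70561879-70562128: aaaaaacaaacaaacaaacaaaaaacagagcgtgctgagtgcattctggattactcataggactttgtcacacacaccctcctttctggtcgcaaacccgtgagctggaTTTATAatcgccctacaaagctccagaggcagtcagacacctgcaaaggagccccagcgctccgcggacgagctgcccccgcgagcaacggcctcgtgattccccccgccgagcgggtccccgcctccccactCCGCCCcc
Gad2 promoter, chr2:22622077-22622326: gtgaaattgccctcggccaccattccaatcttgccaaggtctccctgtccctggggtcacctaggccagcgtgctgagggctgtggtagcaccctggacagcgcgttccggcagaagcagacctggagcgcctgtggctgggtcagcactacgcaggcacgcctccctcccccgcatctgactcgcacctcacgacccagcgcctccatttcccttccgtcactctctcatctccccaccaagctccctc
The Gad1 window has 1 GC box and 1 TATA box and is 58% G or C. In the Gad2 window, 64% G or C, none of the 4 motifs was found. A match is a description of letters, and no match says only that they are not in this window.

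Slc32a1, the vesicular transporter VGAT that loads both transmitters, did not pass. It was at 74.0, 79.4 and 72.9 FPKM in vehicle and at 72.1, 77.9 and 68.8 in imiquimod libraries, and the groups overlapped. Its log2 change was -0.05 ± 0.07, with a 95% interval from -0.22 to 0.12. Of its exon bases 24.9% are shared with Gm14205, and the sources used here do not give the strand setting of the counting.

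The uptake transporters were lower in the imiquimod libraries, though not all passed. Slc6a11 (chr6:114131241-114249952, plus strand), the astrocytic GABA transporter GAT3, was at 94.4, 96.5 and 103 FPKM in vehicle and at 66.5, 79.1 and 63.9 in imiquimod libraries. It fell by 0.50 ± 0.09 on the log2 scale (limma adjusted p = 0.0177), with no overlap. The call ended without any 1 vehicle library or without imiquimod replicate 1 (adjusted p from 0.0504 to 0.0733). Slc6a9 (chr4:117834506-117875198, plus strand), the largely glial glycine transporter GLYT1, was at 39.8, 40.5 and 40.1 FPKM and at 25.8, 34.0 and 27.9. It fell by 0.47 ± 0.10 (adjusted p = 0.0285), and the call ended without any 1 library other than imiquimod replicate 2 (0.0568 to 0.0995) and without a filter on low values. Of its exon bases 30.2% are shared with B4galt2, Ccdc24 and Gm17114.

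Slc6a5 (chr7:49910146-49963856, plus strand), the glycine transporter GLYT2 of glycinergic terminals, was at 74.2, 78.9 and 70.2 FPKM in vehicle and at 46.1, 68.7 and 50.7 in imiquimod libraries. The groups did not overlap, but imiquimod replicate 2 was just under the lowest vehicle library. The log2 change of -0.45 ± 0.15 did not pass (limma adjusted p = 0.0850). Without imiquimod replicate 2, the imiquimod library nearest to vehicle, it was -0.62 (adjusted p = 0.00643), the only setting in which Slc6a5 passed. With another library left out instead, the adjusted p reached 0.222. The ratio of Slc6a5 to Slc6a9 was 1.85 ± 0.0982 in vehicle and 1.87 ± 0.13 in imiquimod libraries.

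Astrocyte markers moved with Slc6a11, Slc6a9 and Abat. Of 14 listed astrocyte genes, 6 fell and 1 rose, with a median log2 change of -0.45. Their summed level was 1959 to 2032 FPKM in vehicle and 1509 to 1822 in imiquimod libraries. Gja1, which encodes the astrocytic gap junction protein connexin 43, was at 32.1 to 33.7 FPKM in vehicle and 14.8 to 16.0 in imiquimod libraries. Aldh1l1, another astrocyte marker, rose by 0.76 ± 0.08 on the log2 scale (limma adjusted p = 0.00217). None of the 14 was at 0 in every library. With imiquimod replicate 2 as the only imiquimod library 3 fell, and without vehicle replicate 1 or 2, 4 fell. The part of this marker difference in the transporter results was not tested. Beside the counts of this and later lists, 5.34% of all genes tested were called lower and 8.74% higher with all 6 libraries. Without 1 vehicle library, 1.13% to 1.52% of all genes were called lower.

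Of the GABA-A receptor subunit genes, Gabra2, Gabra3 and Gabrg1 fell and the other 5 tested did not pass. Alpha subunits shape the response to GABA and, with a gamma subunit, form the benzodiazepine site. Gabra2 (chr5:70957597-71095849, minus strand) encodes alpha2, a main alpha subunit of dorsal horn synapses. It was at 7.38, 6.71 and 6.65 FPKM in vehicle and at 4.20, 5.37 and 3.81 in imiquimod libraries. It fell by 35.5%, a log2 change of -0.63 ± 0.13 (limma adjusted p = 0.0234), with no overlap between the groups. The call ended without any 1 library other than imiquimod replicate 2 (adjusted p from 0.0582 to 0.0943).

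Gabra3 (chrX:72432681-72656848, minus strand), which encodes alpha3, had the highest FPKM of the alpha subunits. It was at 27.0, 25.9 and 30.8 FPKM in vehicle and at 22.5, 21.9 and 21.1 in imiquimod libraries. Here imiquimod replicate 2 was not the one nearest to vehicle. Gabra3 fell by 0.35 ± 0.08 (limma adjusted p = 0.0319), and the call ended without any 1 library other than imiquimod replicate 2 (0.0561 to 0.0983) and without a filter on low values. Gabrg1 (chr5:70751047-70842617, minus strand), a gamma subunit found in glia as well as neurons, was at 4.56, 4.72 and 4.66 FPKM and at 3.70, 3.51 and 2.99. It fell by 0.44 ± 0.10 (adjusted p = 0.0275). Its groups did not overlap, and the call ended without any 1 vehicle library or imiquimod replicate 3 (0.0525 to 0.0957), without a filter on low values, and with a length and GC trend removed.

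Gabra5, the alpha5 subunit of mostly extrasynaptic receptors, was at 19.9, 19.9 and 21.2 FPKM in vehicle and at 18.8, 20.4 and 18.6 in imiquimod libraries, with overlap and a log2 change of -0.08 ± 0.06. Gabra4 was at 2.37, 2.14 and 2.57 FPKM and at 2.61, 2.30 and 2.45, also with overlap (0.06 ± 0.11). Gabrg3 was at 1.19 to 1.54 FPKM in vehicle and 1.34 to 1.62 in imiquimod libraries (0.10 ± 0.15). Gabrd, the delta subunit of tonic receptors, was at 0.320 to 0.516 FPKM in vehicle and 0.156 to 0.405 in imiquimod libraries. It was the 1 member too low to be tested.

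The beta subunit genes Gabrb1 and Gabrb2 did not pass, and imiquimod replicate 2 lay near the vehicle libraries in both. Gabrb2 was at 5.56, 5.89 and 5.30 FPKM in vehicle and at 2.76, 5.80 and 3.89 in imiquimod libraries, where replicate 2 lay inside the vehicle range. Its log2 change was -0.48 ± 0.24 (limma adjusted p = 0.228), and -0.75 without imiquimod replicate 2 (adjusted p = 0.0241), the only setting in which Gabrb2 passed. With another library left out instead, the adjusted p reached 0.434. Gabrb1 was at 5.16, 5.00 and 5.10 FPKM and at 3.28, 5.04 and 4.57, a log2 change of -0.26 ± 0.15 (adjusted p = 0.297).

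Gabrg1, Gabra2, Gabra4 and Gabrb1 lie side by side on chromosome 5. Gabrg1 and Gabra2 fell and the other two did not pass, but the 95% intervals of the log2 changes of Gabrg1 (-0.67 to -0.22), Gabra2 (-0.94 to -0.33) and Gabrb1 (-0.62 to 0.10) overlapped, and differences between their changes were not tested. Gabrg1 is 115 kb from Gabra2, and Gabra2 is 474 kb from Gabra4, all on the minus strand. Gabra4 and Gabrb1 start head to head and overlap by 196 bases, of which 46 are exonic in both. Gabra2 was at 3.12, 3.14 and 2.58 times the FPKM of Gabra4 in vehicle and at 1.61, 2.33 and 1.55 times in imiquimod libraries. The groups did not overlap in this ratio.

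Windows of 250 bases before the RefSeq start of 3 of these neighbours (GRCm38.p6, minus strand, written 5′ to 3′) are printed because Gabra2 and Gabrg1 fell and Gabra4 did not pass. Capitals mark the same motifs as for the decarboxylase genes.
Gabra2 promoter, chr5:71095850-71096099: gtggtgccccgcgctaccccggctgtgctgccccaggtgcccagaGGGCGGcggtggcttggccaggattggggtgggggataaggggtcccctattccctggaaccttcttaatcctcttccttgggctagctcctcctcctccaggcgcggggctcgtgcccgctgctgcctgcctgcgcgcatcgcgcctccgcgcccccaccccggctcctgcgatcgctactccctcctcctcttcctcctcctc
Gabrg1 promoter, chr5:70842618-70842867: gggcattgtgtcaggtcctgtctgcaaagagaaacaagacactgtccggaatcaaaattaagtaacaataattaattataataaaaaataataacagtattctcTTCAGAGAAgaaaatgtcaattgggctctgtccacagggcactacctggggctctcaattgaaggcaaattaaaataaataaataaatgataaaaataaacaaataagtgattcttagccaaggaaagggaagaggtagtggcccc
Gabra4 promoter, chr5:71658309-71658558: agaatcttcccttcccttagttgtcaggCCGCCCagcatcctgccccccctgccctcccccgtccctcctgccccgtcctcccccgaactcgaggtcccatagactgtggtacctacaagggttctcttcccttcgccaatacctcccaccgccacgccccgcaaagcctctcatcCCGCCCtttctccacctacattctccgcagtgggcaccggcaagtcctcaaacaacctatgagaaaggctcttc
The Gabra2 window holds 1 GC box and is 70% G or C, and the Gabra4 window holds 2 and is 61.2% G or C. The Gabrg1 window holds no GC box, is 35.6% G or C and has 1 STAT match. Of the 22 members with a window used here (30 windows), 15 had a GC box in at least 1 of their windows. The 32.7% given for all windows is a share of windows and not of genes. The share of all genes with a GC box was not counted, so the 2 cannot be compared.

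GABA-B receptors, which act through G proteins, are pairs of the products of Gabbr1 and Gabbr2, and neither gene passed. Gabbr1 was at 71.7, 71.0 and 70.5 FPKM in vehicle and at 63.6, 69.9 and 64.4 in imiquimod libraries, a log2 change of -0.11 ± 0.06 (limma adjusted p = 0.279). Gabbr2 was at 20.7, 22.1 and 21.5 FPKM and at 13.9, 19.9 and 19.6, a log2 change of -0.28 ± 0.14 (adjusted p = 0.220). The groups did not overlap in either gene, and imiquimod replicate 1 was the lowest library in both.

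Glycine receptors are built of alpha subunits (Glra1 to Glra4) with the beta subunit Glrb, and none of the members passed. Glra1 (chr11:55514238-55608198, minus strand), the adult alpha subunit, had the largest fitted difference and the largest spread of the 25 members. It was at 50.5, 55.8 and 45.8 FPKM in vehicle and at 15.3, 44.9 and 26.8 in imiquimod libraries. Imiquimod replicate 2 was just under the lowest vehicle library, and the other two imiquimod libraries were far lower. The log2 change was -0.93 ± 0.35, with a 95% interval from -1.75 to -0.11 (limma adjusted p = 0.122). Without imiquimod replicate 2 it was -1.31 (adjusted p = 0.0158), the only setting in which Glra1 passed. Imiquimod replicate 2 was the imiquimod library nearest to vehicle, so leaving it out widens the difference by construction. With another library left out instead, the adjusted p reached 0.271. Imiquimod replicates 1 and 3 were low in both Glra1 and Hoxc8, and the part of that difference in the Glra1 values was not tested.

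Glra2, the alpha subunit typical of immature neurons, was at 2.69, 2.81 and 2.79 FPKM in vehicle and at 3.59, 3.08 and 3.11 in imiquimod libraries, without overlap (0.23 ± 0.09, limma adjusted p = 0.152). Glra3, an alpha subunit of superficial dorsal horn synapses, was at 2.20, 2.15 and 2.68 FPKM and at 2.69, 2.64 and 2.67 (0.19 ± 0.11). Glrb was at 76.3, 73.0 and 76.8 FPKM and at 67.8, 74.8 and 62.9 (-0.14 ± 0.08, adjusted p = 0.265), with overlap. Glra1 made up 90.8%, 91.6% and 88.7% of the summed FPKM of Glra1 to Glra4 in the vehicle libraries and 70.1%, 88.2% and 81.4% in the imiquimod libraries.

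**Figure D3:**
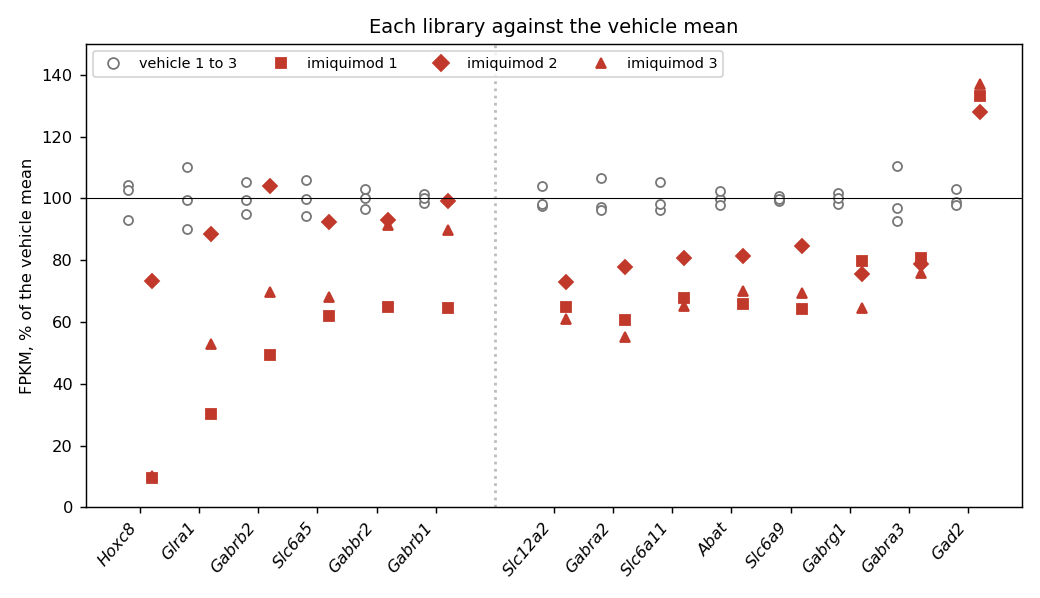
FPKM in each library as a percent of the vehicle mean (y axis), for Hoxc8 and 5 members in which imiquimod replicate 2 was close to vehicle (left of the dotted line) and for the 8 called members (right), vehicle as open circles and imiquimod replicates 1 to 3 as a square, a diamond and a triangle. Left of the line imiquimod replicate 2 lies apart from replicate 1 (44.9 against 15.3 FPKM in Glra1). Replicate 3 lies nearer to replicate 1 in Hoxc8, Glra1, Gabrb2 and Slc6a5. In Gabbr2 (19.6 and 19.9 FPKM) and Gabrb1 (4.57 and 5.04 FPKM) replicate 3 lies nearer to replicate 2. In the called members all 3 imiquimod libraries lie outside the vehicle values, as they also do in Hoxc8, Glra1, Slc6a5 and Gabbr2. The 5 members on the left are a selection, and replicate 2 was also close to vehicle in others, such as Glrb and Gabra5.

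Of the scaffold genes, neither passed. Gphn, which encodes gephyrin, the scaffold that anchors both receptor types, was at 18.0, 18.5 and 18.0 FPKM in vehicle and at 16.1, 16.8 and 15.2 in imiquimod libraries. Its log2 change was -0.18 ± 0.06 (limma adjusted p = 0.0954), and -0.27 with a length and GC trend removed (adjusted p = 0.0330). Nlgn2, which encodes the adhesion protein neuroligin 2 of inhibitory synapses, was at 37.8, 39.0 and 36.8 FPKM and at 42.4, 43.5 and 47.3. Its log2 change was 0.23 ± 0.06 (adjusted p = 0.0599), and it passed with sample quality weights (0.0420). The groups overlapped in neither gene, with Gphn lower and Nlgn2 higher in every imiquimod library.

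Of the chloride transporters, the importer fell and the exporter did not pass. Slc12a2 (chr18:57878678-57946821, plus strand), which encodes NKCC1, was at 54.4, 51.1 and 51.5 FPKM in vehicle and at 33.9, 38.2 and 31.8 in imiquimod libraries. The means were 52.3 ± 1.80 and 34.7 ± 3.26 (SD, n = 3 each), so that it fell by 33.8%. The log2 change was -0.60 ± 0.08 (limma adjusted p = 0.00559), the smallest p of the members. With imiquimod replicate 2 as the only imiquimod library the call ended (adjusted p = 0.0659), as did that of Gad2 (0.0816). Slc12a5 (chr2:164960802-164999731, plus strand), which encodes the neuronal exporter KCC2, was at 86.9, 93.2 and 86.6 FPKM and at 75.0, 86.4 and 80.6. The imiquimod libraries were all lower, replicate 2 only just, and the log2 change of -0.14 ± 0.07 had a 95% interval from -0.32 to 0.03. The ratio of Slc12a5 to Slc12a2 was 1.60, 1.82 and 1.68 in vehicle and 2.21, 2.26 and 2.53 in imiquimod libraries, also with no overlap and with imiquimod replicate 2 beside replicate 1.

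**Figure D4:**
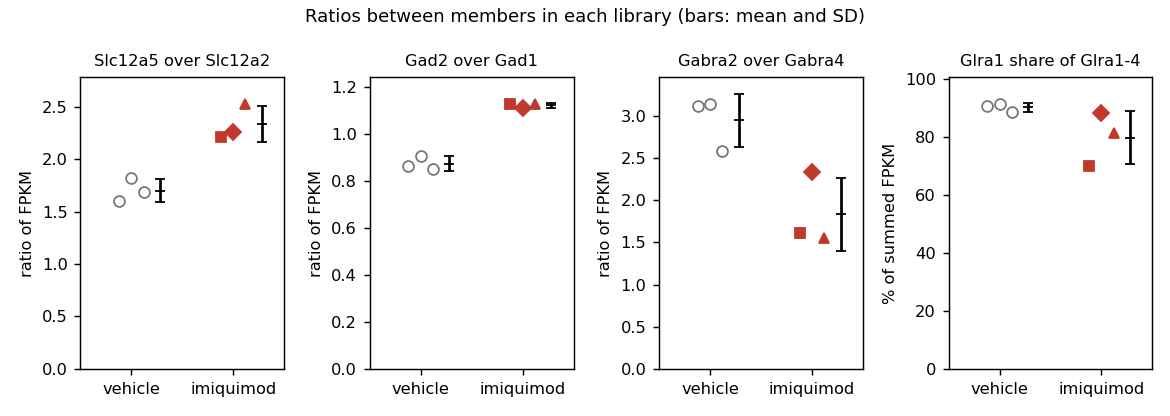
Ratios between members in each library, from left to right Slc12a5 to Slc12a2, Gad2 to Gad1 and Gabra2 to Gabra4 (ratios of FPKM) and Glra1 as a percent of the summed FPKM of Glra1 to Glra4; open circles are vehicle and filled symbols imiquimod replicates 1 to 3, with mean and SD (n = 3) as bars. The groups are apart in each panel, narrowly for the Glra1 share (88.2% in imiquimod replicate 2 against 88.7% in the lowest vehicle library).

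The sequenced cord holds oligodendrocyte lineage cells and astrocytes, which also express Slc12a2. Of 12 precursor and new oligodendrocyte markers, 5 fell and none rose, and their summed level was 83.7 to 86.8 FPKM in vehicle and 54.5 to 67.4 in imiquimod libraries. Of 10 mature oligodendrocyte markers, 2 fell, with summed levels of 8066 to 8621 and 5274 to 6839 FPKM. Without a filter on low values 3 precursor and 0 mature markers fell. The precursor count was 1 without any 1 vehicle library, 2 without imiquimod replicate 1 or 3 and 0 with imiquimod replicate 2 as the only imiquimod library. The mature count was 0 in that last fit and without any 1 vehicle library, and 1 without imiquimod replicate 1. No marker of either list was at 0 in every library. Their part in the Slc12a2 result was not tested.

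Among 15 further receptor subunit and transporter genes of the same pathway, 10 were tested, 2 fell, and the median log2 change was -0.19. Slc7a10, the astrocytic amino acid exchanger Asc-1 that carries glycine and serine, was at 49.6, 53.4 and 45.0 FPKM in vehicle and at 22.0, 27.8 and 17.3 in imiquimod libraries. Its log2 change was -1.16 ± 0.17 (limma adjusted p = 0.00710) and passed without each library in turn.

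Enzymes and carriers that supply or degrade the transmitters were tested in 20 genes, of which 6 fell and none rose (median log2 change -0.06). Aldh5a1, which oxidises the product of Abat, was at 16.9, 16.8 and 15.1 FPKM in vehicle and at 9.72, 11.3 and 9.67 in imiquimod libraries and fell by 0.67 ± 0.09 (limma adjusted p = 0.00503). Aldh9a1, an aldehyde dehydrogenase of a minor route to GABA, fell by 0.40 ± 0.06 (adjusted p = 0.00594). Both genes passed without each library in turn. Gls2, Slc38a3 and Gcsh also fell, and their calls ended without any 1 library other than imiquimod replicate 2 (adjusted p from 0.0592 to 0.145 for Gls2, from 0.0747 to 0.120 for Slc38a3 and from 0.0592 to 0.161 for Gcsh).

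Of 16 tested genes for chloride and cation-chloride transport and the kinases that regulate it, 4 fell and 1 rose (median -0.28). The potassium-chloride cotransporter gene Slc12a4 rose by 0.42 ± 0.07 (limma adjusted p = 0.0107), a call that ended without vehicle replicate 1 (0.0558). The kinase genes Stk39 and Oxsr1, whose products phosphorylate NKCC1 and KCC2, fell by 0.32 ± 0.08 and 0.31 ± 0.07. The chloride exchanger gene Clcn3 fell by 0.30 ± 0.08. These 3 calls ended without any 1 vehicle library and without imiquimod replicate 1 or 3 (adjusted p of 0.077 to 0.153 for the kinase genes and of 0.0894 to 0.172 for Clcn3). Of 23 genes for organisers of the inhibitory postsynapse and receptor partners, 1 fell, beside 5.34% of all genes tested. It was Mdga2, whose product binds neuroligins, with a fall of 0.51 ± 0.12 (limma adjusted p = 0.0391). That call too ended without any 1 library other than imiquimod replicate 2 (0.0587 to 0.134).

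None of the 16 tested markers of inhibitory spinal interneurons passed with limma with all 6 libraries, 2 had an unadjusted p under 0.05, and voom on the recovered fragments called 1 higher. Without vehicle replicate 3, 2 were higher, and without imiquimod replicate 2, 1 was. Pax2, a transcription factor of GABAergic dorsal horn neurons, was at 4.76, 4.99 and 4.84 FPKM in vehicle and at 5.06, 5.15 and 5.53 in imiquimod libraries (log2 change 0.11 ± 0.07). The median of the 16 was 0.09. Of 17 markers of excitatory interneurons 4 rose and 1 fell, with a median of 0.23. These calls were 0 in both directions without vehicle replicate 1 or 2 and with imiquimod replicate 2 as the only imiquimod library, and 1 rose without imiquimod replicate 1 or 3 and without a filter on low values. Of 12 general neuron markers 2 fell, with summed levels of 1788 to 1885 FPKM in vehicle and 1341 to 1683 in imiquimod libraries. Without imiquimod replicate 2, 3 of them fell, without imiquimod replicate 3 only 1 fell, and without any 1 vehicle library none did.

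Cholinergic and motor neuron markers were lower, 5 of 8 passing, with a median log2 change of -0.60. Chat, the acetylcholine-synthesising enzyme, was at 6.27, 5.93 and 6.15 FPKM in vehicle and at 3.69, 5.09 and 3.28 in imiquimod libraries. The count was 6 without imiquimod replicate 2, 2 without imiquimod replicate 3, and 0 without imiquimod replicate 1, without any 1 vehicle library or with imiquimod replicate 2 as the only imiquimod library. With all 6 libraries it was 0 without a filter on low values. The summed marker level was 107 to 115 FPKM and 55.7 to 92.1, with imiquimod replicate 2 the highest of the imiquimod libraries. Imiquimod replicate 2 was also the highest in 16 of the 18 members with a negative change and in 46.3% of all such genes. The part of this marker difference in the member results was not tested. Markers of sensory ganglion neurons (3 tested, none passing, none with an unadjusted p under 0.05, none with voom) and of cerebellum and hindbrain (5 tested, none passing, 2 with an unadjusted p under 0.05, none with voom) gave no call with all 6 libraries. Without imiquimod replicate 2, 1 of the cerebellum and hindbrain markers was higher and 1 lower. Of 10 microglia markers 2 rose and 1 fell, while 3 fell without imiquimod replicate 2. With imiquimod replicate 2 as the only imiquimod library none of them passed. Of 12 endothelial, mural and meningeal markers 3 rose, with a median log2 change of 0.15 that was -0.26 without imiquimod replicate 3 and 0.43 without imiquimod replicate 2.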

How the data were processed

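RNA was sequenced from cervical cord of 3 vehicle and 3 imiquimod mice, grouped by their labels as separate biological replicates. The deposited values are FPKM per Ensembl gene and library, and how the authors scaled them is not stated. HISAT2 2.0.5, featureCounts 1.5.0-p3, DESeq2 1.16.1 and the mm10 build are named, without roles, in the submitters' processing notes. The sources used here give neither the annotation release nor the strand setting. Symbols were found for 54409 genes. Coordinates and lengths came from GENCODE release M21 (GRCm38), and promoter sequences from RefSeq.

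Main test: limma 3.58.1 (R 4.3.3) on log2(FPKM + 0.1) with the variance trended on the mean, so that changes of low genes are understated. Genes with a mean of at least 0.5 FPKM in either group entered, and p was adjusted by Benjamini-Hochberg over all of them. Python 3.11.15 with pandas 2.3.3 did the rest. FPKM times length gave whole fragments (within 0.05, for values under 1000) in 97.4% to 97.6% of cases per library. Tested members had 150 to 14383 fragments per library. The fit was tested on simulated data.

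The members and 16 further gene lists were chosen with earlier results of these data known. Every member is given by its values. Of other lists, the genes past the threshold were named, up to 6 a direction, with some of each list's first 3 markers, except in lists given only by counts. Some genes of these lists are not reported here. Alternatives were other pseudocounts and filters, voom, quality weights, a length and GC correction, a common median, a replicate block and leaving out each library. Using imiquimod replicate 2 alone was added after the data were seen.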

Additional observations from a re-analysis of the deposited data

How the results depend on the processing

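Of the 8 called members, Gad2 and Slc12a2 passed without each library in turn and under the other 10 planned settings. The count of lower members was 4 without a filter on low values, and 1 to 10 when 1 library was left out. The count of higher members was 2 with quality weights and 1 without each library in turn. With imiquimod replicate 2 alone both counts were 0.

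Over all genes, the lower count was 508 without a filter on low values and 1480 with a length and GC trend removed. Leaving out 1 library gave 660 to 1690 higher and 187 to 1296 lower genes, and imiquimod replicate 2 alone gave 197 and 63. Leaving out a library also leaves fewer samples, and the cause of these differences was not tested.

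Signs turned only in members that did not pass. These were Gad1 with a common median (-0.00711), and, over the fits without 1 library, Gabra4 (-0.0088 without vehicle replicate 2, up to 0.119) and Gabrg3 (-0.00371 without vehicle replicate 1, up to 0.167). With imiquimod replicate 2 alone they were Slc32a1 (0.0464), Gabra4 (-0.0307), Gabra5 (0.00458) and Gabrb2 (0.0558).

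With the replicate number as a block, 5 members were lower and 1 higher, and all genes gave 894 higher and 436 lower calls. Gabra3 and Gabrg1 lost their calls. Lower cholinergic and motor neuron markers numbered 2, as did lower oligodendrocyte precursor markers and higher excitatory interneuron markers. Same-numbered libraries showed no shared deviation (correlations of 0.0186, -0.097 and -0.0331). With so few libraries this cannot show whether the numbers pair the mice.

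Depth limited Gabrd most: 3 fragments in a gene of 2 kb are 0.0639 to 0.0863 FPKM. Fragment recovery covers counting only, and the FPKM scale assumes similar total RNA.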

Other observations

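The minor GABA transporters of meninges and vessels varied between single imiquimod libraries. Slc6a13, which encodes GAT2, was at 3.52, 4.52 and 3.87 FPKM in vehicle replicates 1 to 3 and at 3.54, 0.878 and 10.1 in imiquimod replicates 1 to 3. Slc6a12, which encodes the betaine and GABA transporter BGT1, was at 0.537, 0.961 and 0.519 FPKM and at 0.763, 0.176 and 2.35. Dcn, a gene of meningeal fibroblasts, was at 7.10, 10.7 and 9.30 FPKM and at 14.5, 4.01 and 41.5. In all 3 genes imiquimod replicate 2 was the lowest and imiquimod replicate 3 the highest of the 6 libraries. Neither transporter passed (limma adjusted p = 0.827 for Slc6a13 and 0.908 for Slc6a12). These 3 genes were chosen after their values were seen, and how much meninges each sample held was not tested.

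Gabra6, a subunit of cerebellar granule cells, was listed at 0 in each library but imiquimod replicate 2, which had 0.0359 FPKM. The glycine receptor subunit gene Glra4 was at 0.172 to 0.382 FPKM in vehicle and 0.265 to 0.360 in imiquimod libraries, too low to be tested.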
